A study of Oryza sativa with 16 samples.

Results

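The enzymes of the Calvin cycle were examined in rice flag leaves through 10 nuclear loci, chosen by function from a list of locus identifiers and all present among the 55801 loci of the count table. The names of the enzymes were given with that list, and the choice was made with earlier results of these data known. The reduction phase was covered by phosphoglycerate kinase (PGK, LOC_Os05g41640) and the A and B subunits of plastid glyceraldehyde phosphate dehydrogenase (GAPA, LOC_Os04g38600, and GAPB, LOC_Os03g03720). Triose phosphate isomerase (TPI, LOC_Os09g36450), aldolase (LOC_Os11g07020) and fructose bisphosphatase (FBPase, LOC_Os03g16050) are the plastid forms. Sedoheptulose bisphosphatase (SBPase, LOC_Os04g16680), transketolase (LOC_Os06g04270), ribulose phosphate epimerase (RPE, LOC_Os03g07300) and phosphoribulokinase (PRK, LOC_Os02g47020) belong to the regeneration of the acceptor. All 10 passed the filter of at least 10 counts in total, which 28283 loci passed.

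The study sequenced RNA of flag leaves taken at the reproductive stage from plants grown in greenhouse pots. Swarna is a drought-sensitive recipient variety, and DTY-IL (IL in the labels) is a drought-tolerant introgression line whose Swarna background carries fragments of the donor N22, which take in QTLs for grain yield under drought (qDTY) in whole or in part, so that the genotype comparison rests on 1 introgression line. Control pots were kept well watered, whereas reproductive-stage drought stress (RDS) held pots at 75% and then 50% of field capacity, with leaves taken on day 12. Each of the 4 groups (DTY-IL control, DTY-IL RDS, Swarna control and Swarna RDS) had 4 libraries from independent biological replicates. The age of the plants in days is not given in the sources used here. Whether any of the Calvin cycle loci lies in an N22 fragment was not examined.

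The Calvin cycle runs in the chloroplast stroma and turns CO2 into sugar phosphate. Rubisco adds CO2 to ribulose bisphosphate, the product is reduced to triose phosphate with ATP and NADPH, and most of the triose phosphate is rearranged to remake the acceptor. In a flag leaf, the main source of carbon for the growing panicle in rice, the genes of the cycle are known to be among the strongly expressed nuclear genes, and several of the enzymes (FBPase, SBPase, PRK and GAPB) are switched on in the light through thioredoxin.

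Totals ranged from 14250527 to 19367077 counts per library. Levels are given as CPM, the counts of a locus relative to library size after TMM scaling, which corrects for a few abundant transcripts taking a large part of a library. The TMM factors were 0.762 to 0.906 in the control libraries and 1.09 to 1.31 in the RDS libraries. Of the 6 loci listed for Rubisco small subunits and Rubisco activase, 5 were in the table, and their summed level was at least 69589 CPM in every control library. The 3 tested loci of 4 floral-organ MADS-box loci reached 9.73 CPM at most. Fewer cells of a type and less RNA per cell cannot be told apart in whole leaves.

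Within groups the 10 loci moved together in some libraries. Swarna drought 1 was the lowest library of its group for all 10 loci, with a mean deviation of −0.71 on the log2 scale from the group. DTY-IL drought 2 was the highest of its group for 8 loci (mean deviation 0.31), and DTY-IL drought 3 was the lowest for 9 (mean deviation −0.32). Calls between the genotypes under RDS and for the interaction that rest on these libraries are therefore given with and without them. Medians, overlap counts and within-library ratios are given with all libraries only.

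**Figure D1:**
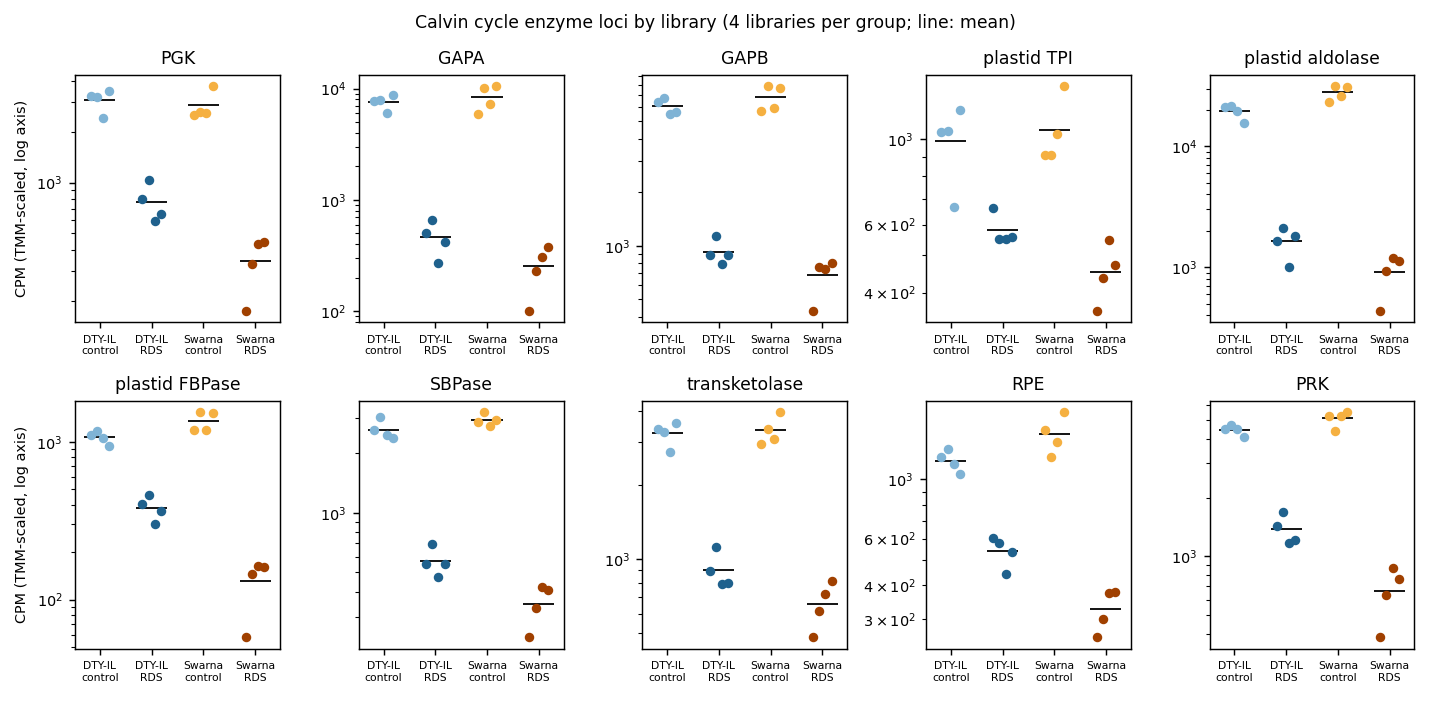
Level of each Calvin cycle locus in CPM on a log axis, by group, with 1 point per library and a line at the group mean (n = 4). For every locus the RDS libraries lie below the control libraries of the same genotype, and Swarna drought 1 is the lowest point of each panel.

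The effect of RDS within each genotype was tested first. Every Calvin cycle locus was lower under RDS in both genotypes, and drought and control libraries did not overlap for any of the 10 in either genotype. The median log2 fold change of the 10 loci was −1.92 in DTY-IL and −3.06 in Swarna, against 0.03 and 0.06 for all genes tested. A call required an edgeR quasi-likelihood adjusted p (Benjamini-Hochberg over all genes tested) of at most 0.05 and a log2 fold change of at least 1 in size. In DTY-IL 9 of the 10 were called lower, where 11.5% of all genes were, and in Swarna all 10 were, where 17.3% were. Libraries did not overlap for 35.0% of all genes in DTY-IL and 46.8% in Swarna.

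The reduction of the first carboxylation product begins with PGK, which phosphorylates phosphoglycerate with ATP. PGK was 3233, 3189, 2417 and 3461 CPM in the DTY-IL controls and 796, 1031, 591 and 651 CPM in the DTY-IL RDS libraries. In Swarna it was 2493, 2627, 2575 and 3728 CPM under control and 174, 328, 433 and 447 CPM under RDS. The highest Swarna RDS library was thus below the lowest DTY-IL RDS library. The log2 fold change of PGK was −2.003 ± 0.27 (SE, edgeR adjusted p 1.36e-05) for DTY-IL and −3.05 ± 0.28 (edgeR adjusted p 9.28e-08) for Swarna.

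GAPA and GAPB are subunits of the NADP-dependent dehydrogenase that makes triose phosphate. GAPA had the largest fall of the 10 loci in both genotypes. Its DTY-IL levels were 7740, 7916, 6066 and 8821 CPM under control and 506, 665, 268 and 417 CPM under RDS. The Swarna libraries had 5889, 10093, 7235 and 10581 CPM under control and 100.3, 230, 309 and 380 CPM under RDS. The RDS libraries of the genotypes overlapped, since DTY-IL drought 3 lay below Swarna drought 3 and 4. The fall was 16.5-fold in DTY-IL (log2 −4.04 ± 0.39 SE, edgeR adjusted p 2.34e-07) and 33.2-fold in Swarna (log2 −5.05 ± 0.40 SE, edgeR adjusted p 1.535e-08).

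GAPB, which carries the regulatory extension of the dehydrogenase, fell less than its partner. The DTY-IL mean was 6116 ± 621 CPM when watered and 925 ± 148 CPM in drought, and the Swarna means were 6822 ± 1152 and 685 ± 172 CPM (SD, n = 4). This was a 6.61-fold fall for DTY-IL plants (edgeR adjusted p 4.89e-08) and a 9.97-fold fall for Swarna plants (edgeR adjusted p 3.21e-09).

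TPI interconverts the triose phosphates and showed the smallest fall in both genotypes. Its level was 1043, 1048, 667 and 1192 CPM in the DTY-IL controls and 662, 550, 551 and 559 CPM under RDS. The lowest control and the highest RDS library were thus nearly level. The Swarna means were 1055 ± 221 CPM in the controls and 453 ± 78.8 CPM in drought (SD, n = 4). The log2 fold change of TPI was −0.77 ± 0.20 for DTY-IL (SE, edgeR adjusted p 0.00451), short of the fold threshold, and −1.22 ± 0.20 for Swarna (edgeR adjusted p 5.55e-05).

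Aldolase joins triose phosphates into fructose bisphosphate and also feeds the making of sedoheptulose bisphosphate. Its locus took more counts than any other of the 10 and ranked 4 among all loci by total counts. It was 21046, 21410, 19708 and 15625 CPM in the DTY-IL controls and 1631, 2116, 996 and 1800 CPM under RDS. Swarna libraries held 23218, 31620, 26096 and 30613 CPM under control and 434, 921, 1182 and 1134 CPM under RDS. All DTY-IL controls lay below all Swarna controls, whereas DTY-IL drought 3 lay within the Swarna RDS range. Aldolase fell 11.9-fold with RDS for DTY-IL (edgeR adjusted p 1.52e-07) and 30.4-fold for Swarna (edgeR adjusted p 3.67e-09).

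FBPase takes a phosphate from fructose bisphosphate, an irreversible step at the branch to starch synthesis. It was 1099, 1173, 1065 and 942 CPM in the DTY-IL controls and 403, 459, 301 and 367 CPM under RDS. In Swarna it was 1187, 1544, 1183 and 1527 CPM under control and 57.7, 146, 163 and 160 CPM under RDS. The lowest DTY-IL RDS library was above every Swarna RDS library, and all DTY-IL controls were below the Swarna controls. The log2 fold change of FBPase was −1.48 ± 0.25 for DTY-IL (SE, edgeR adjusted p 0.000142), to 35.8% of its control level. For Swarna it was −3.37 ± 0.27 (edgeR adjusted p 1.585e-08), to 9.68%. It held place 8 of 10 by size of the fall in DTY-IL and place 3 in Swarna, the largest such difference.

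SBPase carries out the matching step on sedoheptulose bisphosphate and has no cytosolic counterpart. Its DTY-IL mean was 2624 ± 280 CPM when watered and 570 ± 93.7 CPM in drought, and the Swarna means were 2938 ± 201 and 349 ± 85.0 CPM (SD, n = 4). SBPase fell 4.61-fold for DTY-IL (edgeR adjusted p 1.035e-07) and 8.43-fold for Swarna (edgeR adjusted p 1.52e-09). Transketolase, which moves carbon units between sugar phosphates, had means of 3242 ± 358 and 901 ± 150 CPM for DTY-IL and of 3342 ± 454 and 661 ± 145 CPM for Swarna, controls first (SD, n = 4). Transketolase fell 3.60-fold for DTY-IL (edgeR adjusted p 8.48e-07) and 5.06-fold for Swarna (edgeR adjusted p 3.37e-08).

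RPE turns xylulose phosphate into ribulose phosphate. It was 1210, 1301, 1140 and 1052 CPM in the DTY-IL controls and 604, 577, 441 and 534 CPM under RDS. In Swarna it was 1525, 1211, 1378 and 1788 CPM under control and 256, 299, 374 and 378 CPM under RDS, so that the genotypes did not overlap under RDS. RPE fell to 45.9% of its control level in DTY-IL (log2 −1.12 ± 0.17 SE, edgeR adjusted p 5.29e-05) and to 22.1% in Swarna (log2 −2.18 ± 0.18 SE, edgeR adjusted p 2.06e-08).

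PRK closes the cycle by making the acceptor for CO2, and no other pathway of the leaf is known to need it. It was 4519, 4726, 4473 and 4094 CPM in the DTY-IL controls and 1427, 1698, 1175 and 1206 CPM under RDS. Its Swarna levels were 5273, 4415, 5239 and 5494 CPM under control and 384, 631, 867 and 765 CPM under RDS. The genotypes overlapped under control and were apart under RDS. PRK fell to 30.9% of its control level in DTY-IL (log2 −1.69 ± 0.22 SE, edgeR adjusted p 1.02e-05) and to 13.0% in Swarna (log2 −2.95 ± 0.23 SE, edgeR adjusted p 1.425e-08).

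With library size alone in place of TMM factors, the median log2 fold change of all genes moved from 0.03 to 0.43 for DTY-IL plants and from 0.06 to 0.70 for Swarna plants. The calls were then 8 in DTY-IL, without RPE and TPI, and 9 in Swarna, without TPI. Relative to the median of all genes the median of the 10 loci was −1.95 in DTY-IL and −3.10 in Swarna under that scaling, and −1.96 and −3.12 with TMM.

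Measured without any scaling between libraries, the 10 loci together took 4.41%, 4.50%, 4.19% and 4.15% of all counts in the DTY-IL controls and 0.909%, 1.19%, 0.756% and 0.885% under RDS. In Swarna they took 4.41%, 5.14%, 4.63% and 5.31% under control and 0.354%, 0.614%, 0.727% and 0.721% under RDS. Every control library was thus above every RDS library, and the highest Swarna RDS library was below the lowest of DTY-IL. The make-up of this share changed as well. Of the counts of the 10 loci, aldolase gave 39.0% ± 3.93 in watered and 19.8% ± 3.19 in stressed DTY-IL, and 45.5% ± 1.49 and 18.7% ± 2.54 in Swarna (SD, n = 4). TPI made up 1.98% ± 0.452 and 7.30% ± 1.35 of them in DTY-IL, and 1.72% ± 0.264 and 9.82% ± 1.76 in Swarna (SD, n = 4).

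**Figure D2:**
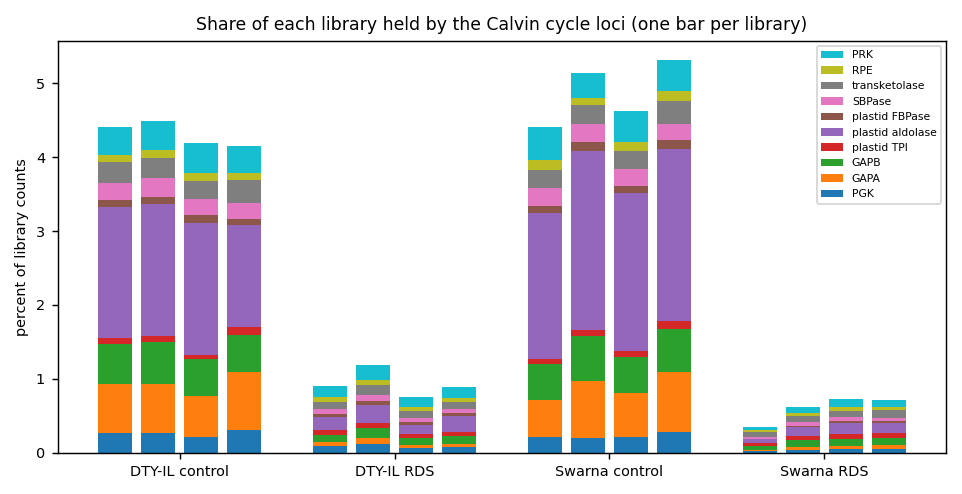
Percent of the counts of each library that the 10 Calvin cycle loci took, stacked by locus, with 1 bar per library. Control bars reach 4.15% to 5.31%, and RDS bars 0.756% to 1.19% in DTY-IL and 0.354% to 0.727% in Swarna.

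The genotypes were then compared within each treatment. Under control none of the 10 loci was called different between DTY-IL and Swarna, where 5.11% of all genes were called in either direction. The count at an unadjusted edgeR p under 0.05 was also 0. The number of loci called was 0 by DESeq2 and by limma-voom as well. The log2 differences ranged from −0.52 ± 0.30 (SE) for aldolase to 0.11 ± 0.26 for PGK, with a median of −0.16 against −0.03 for all genes. FBPase and aldolase were lower in all 4 DTY-IL controls than in any Swarna control (edgeR adjusted p 0.426 and 0.303), and libraries did not overlap for 17.4% of all genes.

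Under RDS all 10 loci had the higher mean in DTY-IL, with a median log2 difference of 0.78 against 0.01 for all genes. FBPase, PGK and PRK were called higher in DTY-IL, 3 of the 10, where 4.20% of all genes were called higher. FBPase was 2.91-fold higher (log2 1.54 ± 0.25 SE, edgeR adjusted p 0.000706), PGK was 2.22-fold higher (log2 1.15 ± 0.27 SE, edgeR adjusted p 0.00912) and PRK was 2.08-fold higher (log2 1.06 ± 0.22 SE, edgeR adjusted p 0.00463). RPE and SBPase passed the adjusted p at 1.65-fold and 1.63-fold (edgeR adjusted p 0.0112 and 0.0216), below the fold threshold. By adjusted p alone 5 of the 10 loci were thus higher, where 6.83% of all genes were. SBPase did not pass without DTY-IL drought 2 (log2 0.59, edgeR adjusted p 0.0701), without Swarna drought 2 (edgeR adjusted p 0.0516) or with library size alone (edgeR adjusted p 0.05105), which leaves 4 in each case. For GAPA, aldolase, transketolase, GAPB and TPI the ratios ranged from 1.28 to 1.82 and did not pass (edgeR adjusted p 0.0836 to 0.273). All 4 DTY-IL libraries were above all 4 Swarna libraries for FBPase, PGK, PRK, SBPase, RPE and TPI, where 15.9% of all genes had no overlap.

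The differences for PGK and PRK lay close to the fold threshold and rested in part on single libraries. Without Swarna drought 1 the log2 difference was 0.94 for PGK and 0.88 for PRK, and without DTY-IL drought 2 it was 0.97 and 0.94, so that FBPase alone was called in each case. FBPase was 1.31 without Swarna drought 1 (edgeR adjusted p 0.000129) and 1.44 without DTY-IL drought 2 (edgeR adjusted p 0.00238). Without DTY-IL drought 3, aldolase was called as well, at 1.01 (edgeR adjusted p 0.0363). With library size alone PRK was at 0.92 (edgeR adjusted p 0.0111), and FBPase and PGK were called. The summed level of the 3 floral-organ loci was 2.34 to 4.10 CPM in DTY-IL RDS and 2.30 to 3.96 CPM in Swarna RDS, and 3.65 to 6.78 CPM and 9.54 to 15.3 CPM in the controls. Most of the sum under RDS came from LOC_Os01g66030, which was not called between the genotypes. LOC_Os03g11614 of the same list was called lower in DTY-IL than in Swarna, with 0.0487 to 0.164 CPM (1 to 3 counts) against 0.746 to 1.01 CPM under RDS (edgeR adjusted p 0.0082). Under control it had 0.0744 to 2.28 CPM against 5.67 to 9.73 CPM (edgeR adjusted p 0.0028), and it was called lower with RDS in each genotype. LOC_Os05g34940 reached 0.342 CPM at most, was at 0 in libraries of all 4 groups and was not called. The part of these loci in the differences of the Calvin cycle loci was not tested.

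**Figure D3:**
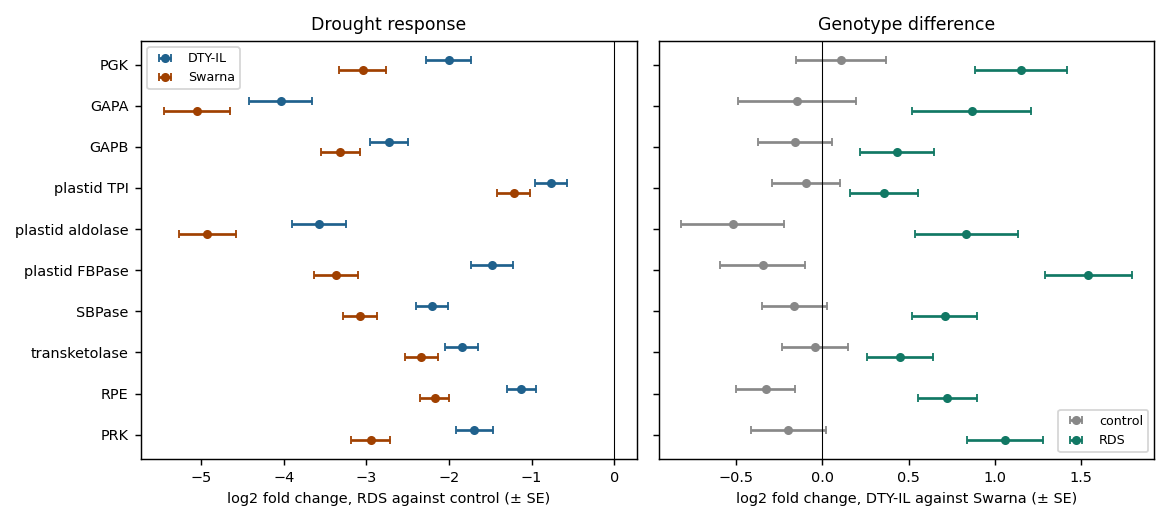
Log2 fold change of each Calvin cycle locus (points, with SE from the edgeR fit as bars) for RDS against control in each genotype on the left and for DTY-IL against Swarna in each treatment on the right. The drought response lies between −4.04 and −0.77 for DTY-IL and between −5.05 and −1.22 for Swarna, whereas the genotype difference lies between −0.52 and 0.11 without stress and between 0.36 and 1.54 with it.

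The interaction term of the fit then asked if RDS had a different effect in DTY-IL than in Swarna. All 10 loci had a smaller fall in DTY-IL. The fall there, on the log2 scale, was 44.0% of that in Swarna for FBPase, 51.7% for RPE and 57.5% for PRK, and 82.2% for GAPB at the other end, with a median of 68.7%. The interaction was called for FBPase, PRK and RPE, 3 of the 10 and all more positive in DTY-IL, where 3.52% of all genes were called in that direction. It was 1.89 ± 0.35 for FBPase (SE, edgeR adjusted p 0.00584), 1.25 ± 0.31 for PRK (SE, edgeR adjusted p 0.0237) and 1.05 ± 0.24 for RPE (SE, edgeR adjusted p 0.0173). The enzymes of these loci act at the fructose bisphosphate branch point and at the end of the regeneration phase. Whether the interaction differs between steps of the cycle was not tested.

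For the other 7 loci the interaction did not pass, although its size was as large for some of them. It was 1.35 ± 0.42 for aldolase (SE, edgeR adjusted p 0.0641), 1.04 ± 0.37 for PGK (SE, edgeR adjusted p 0.104) and 1.01 ± 0.48 for GAPA (SE, edgeR adjusted p 0.237). SBPase was at 0.87 ± 0.27 (SE, edgeR adjusted p 0.0595), and GAPB, transketolase and TPI were between 0.45 and 0.59 (edgeR adjusted p 0.271 to 0.374). Without DTY-IL drought 3 the aldolase interaction was called, at 1.53 (edgeR adjusted p 0.029), and SBPase passed the adjusted p at 0.95 (edgeR adjusted p 0.0429), below the fold threshold. The median interaction of the 10 loci was 1.03, against 0.01 for all genes.

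Change from the control mean in single RDS libraries was compared on the scale of the replicates. For FBPase it was between −1.82 and −1.22 in the DTY-IL libraries and between −4.54 and −3.05 in the Swarna libraries, a gap of more than the whole DTY-IL range. DTY-IL and Swarna libraries did not overlap in this change for 8 of the 10 loci, where all genes gave 14.4% in that direction, and they overlapped for GAPA and transketolase.

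The interaction of RPE stood near the fold threshold. It joins a DTY-IL against Swarna difference of log2 0.72 under RDS, below the fold threshold, to one of −0.33 under control. The control difference did not pass (edgeR adjusted p 0.254). Without Swarna drought 1 the interaction of RPE was 0.94 (edgeR adjusted p 0.0288). It was also below 1 without Swarna control 4 (0.95) or DTY-IL drought 1 (0.99). FBPase and PRK were called with each of the 16 libraries left out in turn, between 1.63 and 1.99 for FBPase and between 1.06 and 1.40 for PRK. With library size alone, under which the median interaction over all genes was −0.23, only FBPase was called, at 1.62 (edgeR adjusted p 0.01045).

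**Figure D4:**
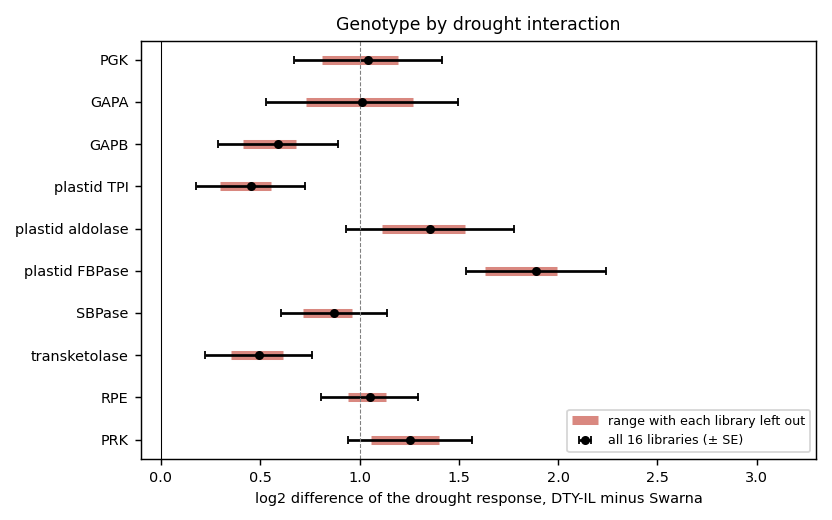
Log2 difference of the drought response (DTY-IL minus Swarna) for each Calvin cycle locus, with SE bars from the edgeR fit of all 16 libraries and a thick band for the range when each library was left out in turn. The dashed line marks the fold threshold of 1. The band of FBPase runs from 1.63 to 1.99, and that of RPE starts at 0.94.

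Ratios of counts between 2 loci of the same library were compared because they do not depend on scaling between libraries. They are ratios of counts and not of molecules, since the loci differ in length. The GAPA to GAPB ratio was 1.25 ± 0.207 in the DTY-IL controls and 0.491 ± 0.113 in drought, and 1.22 ± 0.144 and 0.356 ± 0.108 in Swarna (SD, n = 4). In both genotypes every RDS library lay below every control library. The log2 ratio differed by −1.37 (DTY-IL) and −1.83 (Swarna). For both the exact permutation p, two-sided, was 0.0286, which is the lowest possible with 4 libraries a group, or 0.0571 when adjusted (Benjamini-Hochberg) over 12 ratio tests.

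The SBPase to FBPase ratio set the genotypes apart under RDS. It was 2.38, 2.58, 2.32 and 2.54 in the DTY-IL controls and 1.37, 1.52, 1.58 and 1.499 in the DTY-IL RDS libraries. In Swarna it was 2.42, 2.08, 2.31 and 1.92 under control and 4.09, 2.26, 2.58 and 2.55 under RDS. All DTY-IL RDS libraries were below all other libraries, and Swarna drought 1 stood highest. The log2 ratio changed by −0.72 with RDS in DTY-IL and differed by −0.91 between DTY-IL and Swarna under RDS (exact two-sided permutation p 0.0286 each, adjusted 0.0571). The exact permutation p for the change of 0.36 in Swarna was 0.0857 (adjusted 0.147).

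The PRK to GAPB ratio was above that of all other libraries in DTY-IL under RDS, with 1.35 to 1.61 against 0.828 to 1.17 in Swarna RDS and 0.557 to 0.923 in the controls of both genotypes. Its log2 change with RDS was 1.02 in DTY-IL and 0.34 in Swarna (exact two-sided permutation p 0.0286 and 0.171, adjusted 0.0571 and 0.206). None of the 12 ratio tests passed 0.05 after adjustment, and 6 had the smallest possible p.

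**Figure D5:**
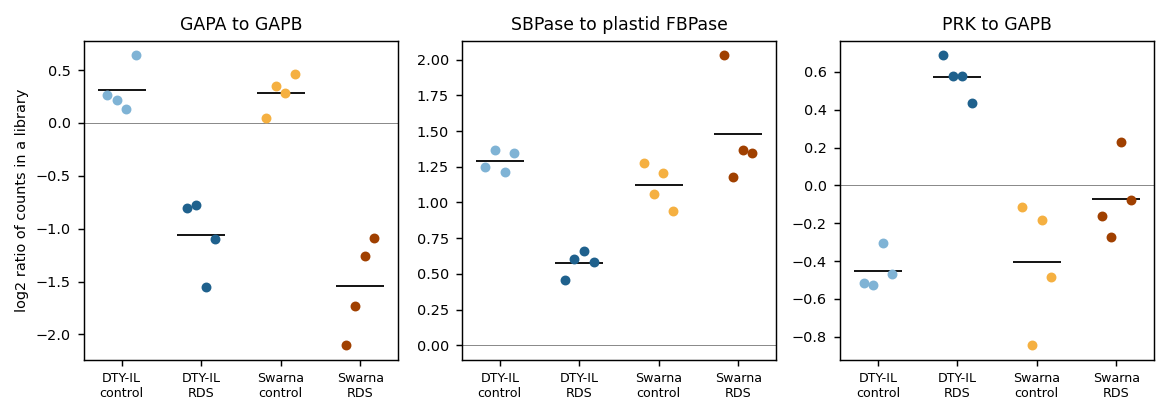
Log2 ratio of the counts of 2 Calvin cycle loci in the same library, with 1 point per library and a line at the group mean (n = 4). GAPA to GAPB is lower under RDS in both genotypes, SBPase to plastid FBPase is lower in DTY-IL RDS than in any other group, and PRK to GAPB is highest there.

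Among themselves the 10 loci differed more in the size of their fall than in its direction. The likeness of a pair was measured as the root mean square difference of log2 CPM, centred on each locus's mean over the 16 libraries. PRK and PGK were the closest of the 45 pairs (0.24), followed by PRK and SBPase (0.24) and SBPase and GAPB (0.24), and GAPA and TPI were farthest apart (1.88). SBPase lay nearest to the mean profile of the 10 loci (0.12) and GAPA lay farthest from it (1.01). The size of the fall held the same place among the 10 in both genotypes for 5 loci, which were GAPA, aldolase, PRK, RPE and TPI.

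Of other loci listed for the cycle, those for Rubisco small subunits and Rubisco activase behaved alike in part. The list and the 2 that follow were assigned from general knowledge of the locus numbering, since no annotation used here covers it. Of the 5 measured loci 4 were called lower under RDS in each genotype. Of all genes 11.5% were called lower in DTY-IL and 17.3% in Swarna. LOC_Os11g47970 had log2 fold changes of −4.63 ± 0.28 (DTY-IL) and −5.82 ± 0.30 (Swarna; SE, edgeR adjusted p 1.53e-09 and 9.69e-11). LOC_Os02g05830 went up, from at most 0.789 CPM in every control library to at most 3.55 CPM under RDS, where 12.0% of all genes were called higher in DTY-IL and 15.2% in Swarna. Its log2 rise was 2.82 ± 0.40 (DTY-IL) and 2.70 ± 0.37 (Swarna; SE, edgeR adjusted p 2.14e-05 and 8.60e-06). Between the genotypes under RDS, 2 of the 5 were called higher in DTY-IL, where 4.20% of all genes were. LOC_Os12g17600 differed by log2 1.47 ± 0.39 and LOC_Os12g19381 by 1.30 ± 0.33 (SE, edgeR adjusted p 0.0210 and 0.0159). The interaction was called for 1 of them, LOC_Os11g47970, at 1.19 ± 0.35 (SE, edgeR adjusted p 0.04875). Of all genes 3.52% were called in that direction, and the other 4 loci did not pass.

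Among the 4 further loci listed for steps of the cycle, 2 were called lower and 1 higher under RDS in each genotype, beside 11.5% of all genes lower and 12.0% higher in DTY-IL and 17.3% and 15.2% in Swarna. LOC_Os07g08030 had log2 fold changes of −2.28 ± 0.22 (DTY-IL) and −3.61 ± 0.24 (Swarna), and its interaction of 1.33 ± 0.30 was called (SE, edgeR adjusted p 0.0163). LOC_Os04g19740 rose from 0.729 to 1.18 CPM in the DTY-IL controls to 12.3 to 28.8 CPM under RDS, and from 1.76 to 2.60 CPM to 50.7 to 53.8 CPM in Swarna. Its log2 rise was 4.46 ± 0.26 and 4.62 ± 0.24 (SE; edgeR adjusted p 7.10e-10 and 1.06e-10), and its genotype difference, DTY-IL against Swarna, was −1.12 ± 0.28 under control and −1.29 ± 0.20 under RDS (SE, edgeR adjusted p 0.0178 and 0.000375). Its interaction of −0.16 ± 0.36 did not pass (SE, edgeR adjusted p 0.858).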

How the data were processed

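RNA-seq of 16 flag-leaf libraries was analysed. Per the study's methods and processing notes, the authors trimmed reads with Trimmomatic and quantified transcripts of the RGAP 7 annotation on IRGSP-1.0, extracted with Cufflinks 2.2.1, by Salmon 0.7.2, then summed them per gene. The deposited values are estimated counts, given as whole numbers. Whether they were scaled for length is not stated, and reads of near-identical transcripts may have been split, which was not tested. The deposited contrast tables made with DESeq2 1.14.1 (log2 fold changes, standard errors, statistics and p-values) were not used.

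Loci with at least 10 counts in total entered one edgeR 4.0.16 quasi-likelihood fit of all 4 groups (R 4.3.3), with TMM factors and Benjamini-Hochberg adjustment over all 28283 loci tested. A call needed an adjusted p of at most 0.05 and a log2 fold change of at least 1 in size. The test returns no SE, so each SE was taken as the size of the log2 fold change over the square root of its F statistic. Log2 CPM used a prior count of 2. Ratios were compared by exact two-sided permutation tests (SciPy 1.17.1). Replicates of a group differed by at least 12.4 times the sampling noise, so none was counted as a copy. Alternatives were other scalings, filters, tests (DESeq2 1.42.0, limma-voom with limma 3.58.1, glmTreat), replicate blocks and leaving out each library. The text names all 10 loci, the 2 loci with the nearest profile and some loci of the comparison lists. Not every locus of those lists is described singly. The members and the comparison lists were chosen with earlier results of these data known. The RefSeq gene table used here matched 0 of the 10 loci, so no sequence is shown. The code was tested on simulated data.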

Additional observations from a re-analysis of the deposited data

Results flagged for a closer look

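Within groups of 4 libraries, 3 of 56 sets of values held a library far from the rest, with a gap to the nearest library that was larger, as a part of the whole range, than Dixon's critical value. Chance gives about 1 in 20 such sets. FBPase was 57.7 CPM in Swarna drought 1, where the other libraries of the group had 146 to 163 CPM. PGK was 3728 CPM in Swarna control 4 against 2493 to 2627 CPM in the others. TPI was 662 CPM in DTY-IL drought 1 against 550 to 559 CPM in the others.

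The drought response differed between the genotypes by the edgeR interaction test for 3 loci. The log2 difference of the responses, DTY-IL minus Swarna, was 1.89 for FBPase, 1.25 for PRK and 1.05 for RPE. All 4 DTY-IL libraries changed less from their control mean than any Swarna library did for each of these loci.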

How the results depend on the processing

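The drought calls were 9 in DTY-IL and 10 in Swarna with any library left out, and those between genotypes under control stayed at 0. By glmTreat, which tests against the fold threshold itself, the drought calls were 7 in DTY-IL, without FBPase (adjusted p 0.0683) and RPE (adjusted p 0.394), and 9 in Swarna, without TPI (adjusted p 0.172). Leaving out 1 library gave 1 to 4 calls for DTY-IL against Swarna under RDS (3 with all libraries) and 2 to 4 for the interaction (3). The ratio tests passed were 0 each time. With a library left out the smallest possible permutation p was too high for any to pass, so this 0 says nothing on the ratios. For the RDS comparison the count was 5 by adjusted p alone and 0 by glmTreat. For the interaction it was 1 with library size alone, 5 with DESeq2, which added PGK and aldolase, and 0 by glmTreat. Over all genes, library size alone changed the interaction calls in either direction from 1389 to 1798. Without the 20 most abundant loci in the denominator, the share of counts was 5.38% in DTY-IL control and 6.17% in Swarna control. Under control the DTY-IL to Swarna log2 difference changed sign for transketolase and TPI, to 0.079 and 0.025 with library size alone, 0.029 and 0.052 without DTY-IL control 3, and 0.048 and 0.058 without Swarna control 4, none past the threshold. With each library left out it was −0.10 to 0.048 for transketolase and −0.20 to 0.058 for TPI. Over single loci, 1341 alternative values kept their direction and call, 25 lost the call, 8 gained it and 6 changed sign.

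Replicate numbers showed no clear pairing of the libraries. By title number 10 of 24 pairs and by description number 7 of 17 correlated above 0.1 in their deviations from group means. Libraries were closest to one with their own number in 12 of 48 and 7 of 34 cases. These correlations were taken over many loci, and a block effect on the 10 loci was not tested by them. A replicate block by title number gave 9, 10, 0, 3 and 3 calls, the counts without it. A block by description number gave 1 call each under RDS and for the interaction, FBPase in both. PGK and PRK under RDS then had log2 differences of 0.97 and 0.96 (edgeR adjusted p 0.0652 and 0.051), and PRK and RPE interactions of 1.15 and 0.97 (edgeR adjusted p 0.0825 and 0.0695). The pots stood in randomized complete blocks with 6 replications, and the description numbers run from 1 to 6. No label says that a number marks a block. The interaction alone was not refitted on fewer groups. The edgeR p-values rest on a spread between replicate libraries estimated over all 4 groups together, with 4 libraries per group. The permutation p-values use only the libraries of the groups compared.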

Other observations

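The 12 loci listed for cytosolic counterparts of these enzymes, assigned like the other lists, had a median log2 fold change with RDS of −0.47 in DTY-IL and −0.54 in Swarna, against 0.03 and 0.06 for all genes. In DTY-IL 1 was called lower and 1 higher, where 11.5% and 12.0% of all genes were, and in Swarna 4 were lower and 1 higher, where 17.3% and 15.2% were. LOC_Os01g64660 had log2 fold changes of −1.95 ± 0.36 (DTY-IL) and −3.65 ± 0.38 (Swarna; SE, edgeR adjusted p 0.00027 and 3.763e-07), and LOC_Os06g45710 rose by 1.40 ± 0.20 and 1.55 ± 0.20 (SE, edgeR adjusted p 2.168e-05 and 4.706e-06). LOC_Os01g64660 was called higher in DTY-IL under RDS, at log2 1.42 ± 0.35 (SE, edgeR adjusted p 0.0140). Its interaction of 1.69 ± 0.49 was also called (SE, edgeR adjusted p 0.0478). It was the only 1 of the 12 called in each comparison, where 4.20% and 3.52% of all genes were called in that direction.

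Of 15943 other loci, LOC_Os03g39610 and LOC_Os01g67120 had the profiles nearest to the mean of the 10 Calvin cycle loci over the 16 libraries, at root mean square differences of 0.13 and 0.14 in centred log2 CPM. LOC_Os03g39610 had mean levels of 6788 CPM in DTY-IL control, 1551 CPM in DTY-IL RDS, 7282 CPM in Swarna control and 853 CPM in Swarna RDS. LOC_Os01g67120 had 1104, 288, 1233 and 146 CPM in the same order. Whether either locus lies in an N22 fragment of DTY-IL was not examined.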
